A study of Mus musculus with 2 samples.

Results

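The interferon regulatory factors (IRFs) are transcription factors that share a DNA-binding domain, and 8 genes of this family (Irf1, Irf2, Irf3, Irf4, Irf5, Irf7, Irf8 and Irf9) are described here with Batf3, the AP-1 family partner of IRF8. These 9 genes were taken by symbol from the 32589 genes of the count matrices of both libraries. The cells were leukocytes sorted as live and positive for CD45, taken from mouse tumours grown from the colon carcinoma line MC38, on day 19 after inoculation. The BiDT group had received a treatment that the labels name without describing it, and an anti-TIM3 antibody fused to an interferon appears in the title of the series. The Ctrl group is labelled as control with no further agent named. Both groups carried MC38 tumours, and for each group cells of 5 biological replicates were pooled into 1 library, both of batch 1. Mouse strain, age and genotype are not given in the sources used here. With 1 library per group the differences below come without tests and without replicates to check them, treatment and library cannot be told apart, and every interval given is an exact 95% interval that covers counting error only.

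Type I interferons bind a receptor whose kinases activate STAT proteins, and STAT2 joins IRF9 in ISGF3, the complex that switches on interferon-stimulated genes at a DNA element called the ISRE. Irf7 is itself such a gene and amplifies interferon production, and Irf1 is induced mainly through gamma-activated sites (GAS) and drives genes of antigen presentation. IRF4 and IRF8 are known instead for shaping lineages: IRF8 with BATF3 for type 1 conventional dendritic cells (cDC1), IRF8 also for plasmacytoid dendritic cells (pDC) and monocytes, and IRF4 for activated T cells, plasma cells and type 2 conventional dendritic cells (cDC2). IRF2 competes with IRF1 for its sites, whereas IRF3 and IRF5 wait in the cytoplasm and are activated by phosphorylation downstream of nucleic acid sensors and Toll-like receptors.

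The promoters of 4 members are printed: that of Irf7, the member with the widest differences below, and those of Irf1, Irf8 and Irf2, which held letters of the ISRE or GAS. RefSeq promoter windows of build GRCm38.p6, from 250 bases before to 50 bases after a start site, were found for all 9 members, 2 each for Irf1, Irf8 and Irf9 and 1 for each other member, and searched on both strands for the ISRE core (GAAA, any 2 bases, GAAA) and for the GAS core TTCNNNGAA. The GAS core reads the same on both strands, and the deposited counts refer to another build, GRCm39. The 250 bases before the start site are shown in the direction of transcription, with matches in capitals.
Irf7, chr7:141266425-141266674, minus strand: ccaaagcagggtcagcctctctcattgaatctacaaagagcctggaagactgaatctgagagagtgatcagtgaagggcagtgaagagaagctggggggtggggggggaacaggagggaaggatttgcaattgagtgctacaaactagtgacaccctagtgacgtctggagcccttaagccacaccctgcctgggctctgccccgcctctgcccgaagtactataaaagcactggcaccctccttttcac
Irf1, chr11:53769764-53770013, plus strand: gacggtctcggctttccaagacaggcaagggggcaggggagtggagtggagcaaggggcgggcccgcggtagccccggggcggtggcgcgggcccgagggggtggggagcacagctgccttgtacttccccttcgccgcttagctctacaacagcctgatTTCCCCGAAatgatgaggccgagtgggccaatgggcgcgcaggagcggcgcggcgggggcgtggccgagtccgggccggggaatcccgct
Irf8, chr8:120736108-120736357, plus strand: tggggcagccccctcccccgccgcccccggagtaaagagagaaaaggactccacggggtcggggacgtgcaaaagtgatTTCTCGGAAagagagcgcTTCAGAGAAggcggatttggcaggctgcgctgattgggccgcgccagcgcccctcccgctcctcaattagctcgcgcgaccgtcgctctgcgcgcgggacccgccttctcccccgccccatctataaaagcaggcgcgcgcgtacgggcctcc
Irf2, chr8:46739495-46739744, plus strand: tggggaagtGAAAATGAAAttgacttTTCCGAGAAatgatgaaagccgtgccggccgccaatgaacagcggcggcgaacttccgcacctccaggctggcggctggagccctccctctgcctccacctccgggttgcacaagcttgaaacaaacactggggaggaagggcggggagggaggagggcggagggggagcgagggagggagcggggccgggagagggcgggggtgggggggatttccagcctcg
The ISRE core was held by 3.44% of the 32851 windows of all genes and, among the members, by that of Irf2 alone. The GAS core was held by 8.30% of all windows and by windows of Irf1, Irf8 (at 2 places), Irf2 and Batf3. The second windows of Irf1 and Irf8, which are not printed, held no match. In Irf1 it was TTCCCCGAA, whose first base lies 90 bases before the start site. The windows of Irf7, Irf9, Irf3, Irf4 and Irf5 held neither run of letters, which says nothing on sites elsewhere.

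Cell types were drawn as gates on marker genes, none of them a member, and the unique molecular identifiers (UMIs) of each gate and library were summed and expressed as CPM, the UMIs of a gene per 1000000 UMIs of that gate. Of 16 gates, 12 held at least 50 cells in each library: natural killer (NK), CD8 T, regulatory T (Treg), CD4 T and gamma delta T cells, cDC1, cDC2, migratory dendritic cells (DC), monocytes, macrophages, neutrophils and a non-immune gate. BiDT held 34423 filtered cells at a median of 2670 UMIs and Ctrl 32607 cells at a median of 4268 UMIs. The macrophage medians were 3325 UMIs in BiDT and 6311 UMIs in Ctrl. A total of 713 barcodes occurred in both libraries. Cells in no gate were 42.8% of BiDT and 34.1% of Ctrl cells. Ptprc, which encodes CD45, had 68.0 CPM in BiDT and 43.4 CPM in Ctrl in the non-immune gate, against 602 CPM in BiDT and 468 CPM in Ctrl in macrophages, so the cells of the non-immune gate go against the sort label. In 14 of the 16 gates the gate's own markers outnumbered other markers among its 10 leading genes in both libraries, and the CD4 T and B gates tied in Ctrl. The gates were themselves drawn on marker genes, so this count is no independent check of them.

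A gene was counted as higher or lower in BiDT where its CPM differed at least 1.5-fold with at least 50 UMIs over both libraries of the gate. Irf7, Irf9 and Irf1, the inducible members, were higher in 30 of 36 pairs of gene and gate and lower in 0, with a median log2 ratio of BiDT over Ctrl of 1.36. The lineage members Irf8, Irf4 and Batf3 were higher in 8 and lower in 2 of 28 measured pairs (median 0.29), with 8 pairs under 50 UMIs. Of the higher pairs, Irf4 in NK cells and the non-immune gate and Batf3 in CD8 T cells had levels below 10% of another gate's. Free RNA cannot be told apart there, and the higher pair of Irf8 in gamma delta T cells turned round under stricter gates. Irf2, Irf3 and Irf5 were higher in 2 and lower in 2 of 34 (median 0.01). Of all measured genes, between 9.15% (gamma delta T cells) and 21.2% (macrophages) were higher in a gate. Between 4.48% (non-immune gate) and 16.3% (gamma delta T cells) were lower.
Read by gate, with the share of all measured genes that passed the same fold in brackets, NK cells had 3 of 8 measured members higher (15.4%) and 0 lower (4.59%). CD8 T cells had 4 of 9 higher (9.71%) and 0 lower (4.73%), and CD4 T cells 3 of 8 higher (10.2%) and 0 lower (8.49%). Treg cells had 2 of 8 higher (10.8%) and 1 lower (11.4%), and gamma delta T cells 3 of 7 higher (9.15%) and 0 lower (16.3%). Among dendritic cells, cDC1 had 3 of 7 higher (11.8%) and 0 lower (13%), cDC2 5 of 9 higher (9.88%) and 0 lower (8.46%), and migratory DC 3 of 9 higher (15.3%) and 2 lower (9.45%). Monocytes had 3 of 9 higher (11.7%) and 0 lower (5.05%), and macrophages 4 of 9 higher (21.2%) and 1 lower (10.7%). Neutrophils had 2 of 7 higher (12.6%) and 0 lower (11.4%), and the non-immune gate 5 of 8 higher (15.5%) and 0 lower (4.48%). Scaling factors from the trimmed mean of M-values (TMM), in place of the gate total, shifted every log2 ratio by -0.23 in macrophages, -0.21 in migratory DC and -0.18 in the non-immune gate, and by less than 0.1 either way in the other 9 gates.

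**Figure D1:**
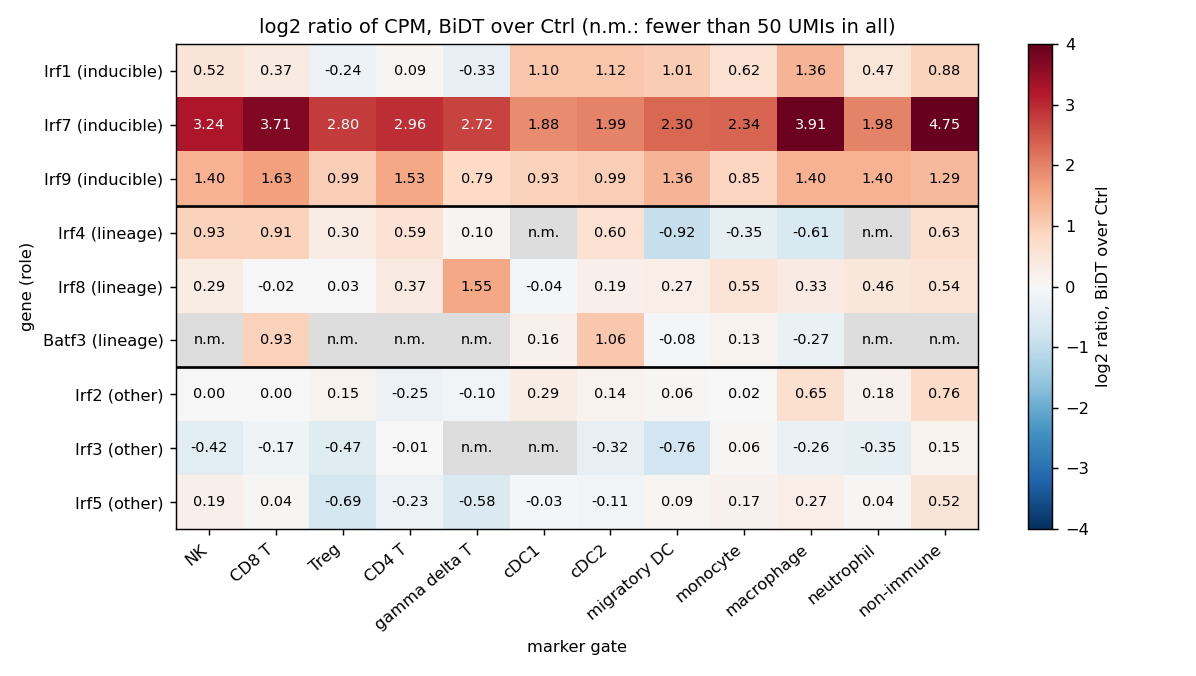
Log2 ratio of CPM, BiDT over Ctrl, for each member (rows, by role) in each marker gate (columns), from 1 library per group; n.m. marks fewer than 50 UMIs over both libraries. Irf7 lies between 1.88 and 4.75 and Irf9 between 0.79 and 1.63, while Irf8 lies between -0.04 and 0.55 outside gamma delta T cells.

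Irf7, the amplifier of the interferon response, was higher in BiDT in all 12 gates. Its level in macrophages was 921 CPM in BiDT and 61.3 CPM in Ctrl, a log2 ratio of 3.91 with a counting interval of 3.87 to 3.95. Further log2 ratios are followed by their interval in the same way. In the non-immune gate it was 347 CPM in BiDT and 12.9 CPM in Ctrl, the widest ratio of the 12 gates at 26.9-fold (log2 4.75, 4.53 to 4.98). CD8 T cells had 372 CPM in BiDT and 28.5 CPM in Ctrl (log2 3.71, 3.52 to 3.90). All 3 of these gates had less Irf7 than monocytes or neutrophils in Ctrl. NK cells had 238 CPM in BiDT and 25.1 CPM in Ctrl (log2 3.24, 2.94 to 3.56). The smallest ratio was that of cDC1, at 431 CPM in BiDT and 117 CPM in Ctrl (log2 1.88, 1.32 to 2.47). Neutrophils followed with 653 CPM in BiDT and 166 CPM in Ctrl (log2 1.98). The gates with the smallest ratios were thus among those with most Irf7 in Ctrl. The Ctrl level is also the divisor of the ratio, so ratio and Ctrl level are not independent. The cDC1 ratio lay between 1.07 and 3.18 over 8 alternatives. In cDC2 the level was 463 CPM in BiDT and 116 CPM in Ctrl (log2 1.99). Monocytes had 753 CPM in BiDT and 149 CPM in Ctrl (log2 2.34), and migratory DC 319.5 CPM in BiDT and 65.0 CPM in Ctrl (log2 2.30). Among the smaller T cell gates the differences were of middle size. Treg cells had 468 CPM in BiDT and 67.2 CPM in Ctrl (log2 2.80), CD4 T cells 524 CPM in BiDT and 67.1 CPM in Ctrl (2.96), and gamma delta T cells 358 CPM in BiDT and 54.4 CPM in Ctrl (2.72).
The order of the gates differed between the libraries. In BiDT macrophages stood above monocytes, monocytes above neutrophils and neutrophils above CD4 T cells with no overlap of neighbouring intervals, the next 7 gates overlapped from neighbour to neighbour down to migratory DC, and NK cells were lowest. In Ctrl neutrophils, monocytes, cDC1 and cDC2 overlapped from neighbour to neighbour at the top, Treg, CD4 T, migratory DC, macrophages and gamma delta T cells overlapped below them, and the non-immune gate was lowest. Ranked from the highest ratio among all measured genes of the gate, Irf7 was 34 of 14042 in macrophages, 17 of 10920 in CD8 T cells and 11 of 11625 in the non-immune gate.
With each cell thinned to 1000 UMIs, the share of macrophages with an Irf7 UMI was 51.7% in BiDT and 5.92% in Ctrl, and unthinned it was 78.5% in BiDT and 24.3% in Ctrl. In CD8 T cells the thinned share was 29.2% in BiDT and 2.67% in Ctrl, against 61.0% in BiDT and 8.49% in Ctrl unthinned. In the non-immune gate it was 29.0% in BiDT and 1.61% in Ctrl thinned and 72.7% in BiDT and 10.2% in Ctrl unthinned. Thinned cells thus showed the same direction as the summed counts in these 3 gates. As a measure of macrophage RNA in other gates, 5 macrophage genes (C1qa, C1qb, Apoe, Csf1r and Lyz2) were read as percent of their macrophage level. In the non-immune gate they lay between 1.91% and 5.32% in BiDT and between 2.37% and 4.94% in Ctrl, and Irf7 stood at 37.6% in BiDT and 21.0% in Ctrl. In NK cells they lay between 2.34% and 8.84% in BiDT and between 2.95% and 6.0% in Ctrl, and Irf7 stood at 25.9% in BiDT and 41.0% in Ctrl. Genes of this set, such as C1qa and C1qb, also served to draw gates, and cells passing more than 1 gate were set aside. The gating can thus lower their percentages, whereas Irf7 drew no gate. The comparison therefore cannot tell where the Irf7 UMIs came from. The pDC gate, with 20 cells in BiDT and 43 in Ctrl, had 966 CPM in BiDT on 74 UMIs and 153 CPM in Ctrl on 31 UMIs.

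**Figure D2:**
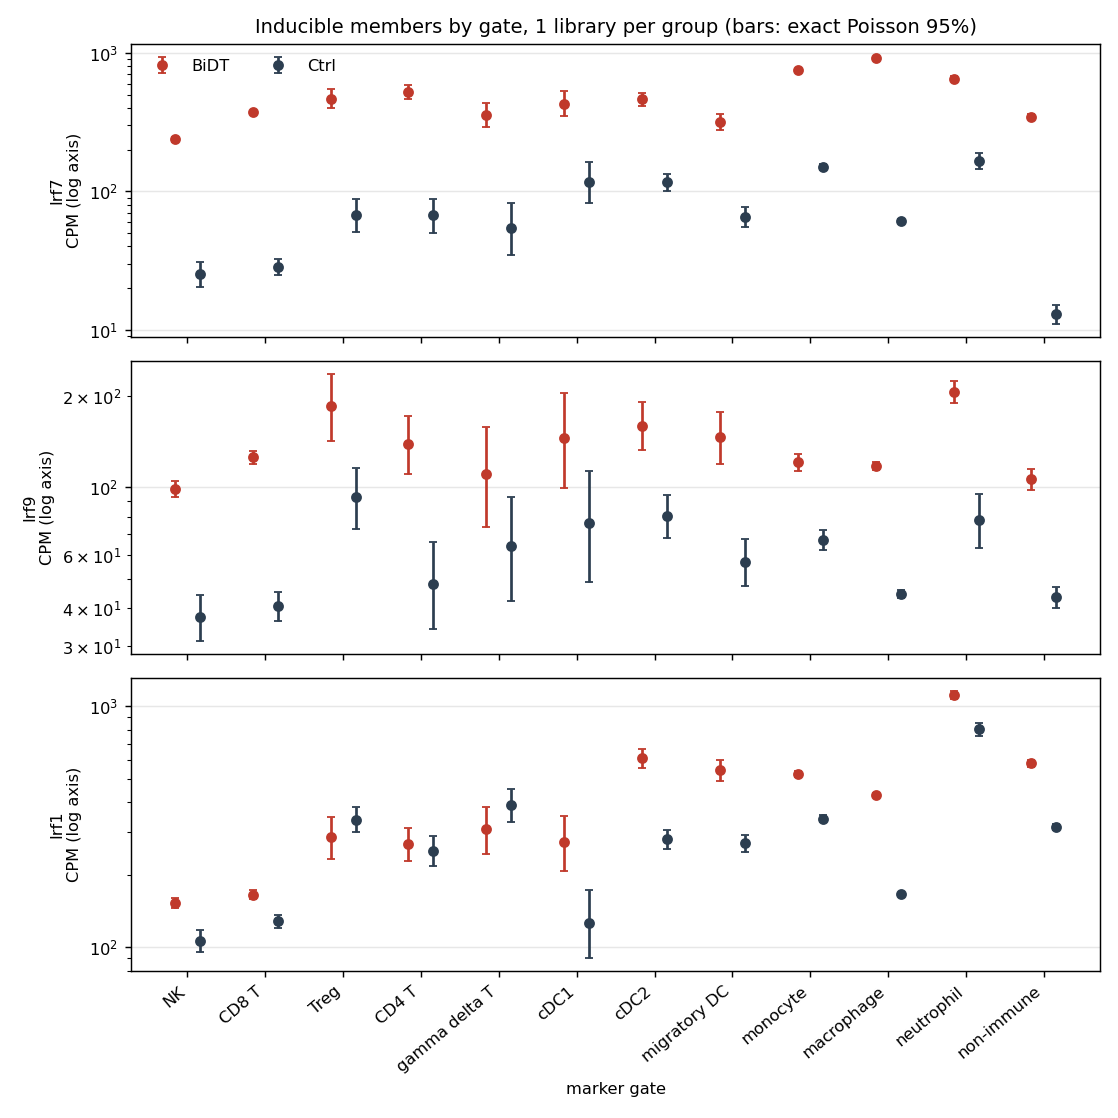
Levels of Irf7, Irf9 and Irf1 in CPM (log axes) by marker gate, BiDT left of Ctrl in each pair, with exact Poisson 95% intervals from 1 library per group. The macrophage level of Irf7 is 921 CPM in BiDT and 61.3 CPM in Ctrl, and the Irf1 level of neutrophils, the highest of its panel, is 1113 CPM in BiDT and 803 CPM in Ctrl.

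Irf9, the DNA-binding subunit of ISGF3, was also higher in all 12 gates, over a narrower range. The ratio was widest in CD8 T cells, with 126 CPM in BiDT and 40.5 CPM in Ctrl (log2 1.63, 1.46 to 1.81), and CD4 T cells followed with 139 CPM in BiDT and 48.1 CPM in Ctrl (1.53, 0.96 to 2.13). Macrophages had 118 CPM in BiDT and 44.4 CPM in Ctrl (1.40, 1.34 to 1.47). The intervals of all gates but gamma delta T cells leave out 0. NK cells had 98.6 CPM in BiDT and 37.3 CPM in Ctrl (1.40, 1.14 to 1.67). The smallest ratio, in gamma delta T cells, rested on 29 UMIs in BiDT and 27 UMIs in Ctrl, with an interval that includes 0 (0.79, -0.02 to 1.60). In cDC1 the ratio was 0.93, and 0.26 on 14 UMIs in thinned cells. In the remaining gates the log2 ratio lay between 0.85 in monocytes, with 121 CPM in BiDT and 67.2 CPM in Ctrl, and 1.40 in neutrophils, with 207 CPM in BiDT and 78.0 CPM in Ctrl. Levels lay between 98.6 CPM in NK cells and 207 CPM in neutrophils in BiDT, and between 37.3 CPM in NK cells and 92.9 CPM in Treg cells in Ctrl. In both libraries the interval of each gate overlapped that of the next in order. Gates further apart did not all overlap, as with NK cells (92.8 to 105 CPM) and neutrophils (189 to 225 CPM) in BiDT.

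Irf1, which drives genes of antigen presentation, was higher in 6 of 12 gates, the 3 dendritic gates, monocytes, macrophages and the non-immune gate, and passed 1.5-fold in none of the 5 lymphoid gates. The difference between gates was not tested. Macrophages had 428 CPM in BiDT and 166 CPM in Ctrl (log2 1.36, 1.33 to 1.40). In cDC2 the level was 609 CPM in BiDT and 281 CPM in Ctrl (1.12, 0.93 to 1.30), and in migratory DC 543 CPM in BiDT and 270.3 CPM in Ctrl (1.01, 0.82 to 1.19). In cDC1 it was 272 CPM in BiDT on 60 UMIs and 127 CPM in Ctrl on 40 UMIs (1.10, 0.50 to 1.72), and 0.05 on 28 UMIs in thinned cells. The cDC1 ratio is thus the least certain of the dendritic ones. Monocytes had 523 CPM in BiDT and 341 CPM in Ctrl (0.62, 0.55 to 0.68), a ratio that lay between 0.45 and 0.75 over 8 alternatives and below 1.5-fold in 4 of them. In CD8 T cells the level was 165 CPM in BiDT and 128 CPM in Ctrl (0.37, 0.26 to 0.47). The log2 ratio was 0.52 in NK cells, 0.09 in CD4 T cells, -0.24 in Treg cells and -0.33 in gamma delta T cells, the last lying between -0.60 and 0.38 over the alternatives. Neutrophils had the highest level in both libraries, with 1113 CPM in BiDT and 803 CPM in Ctrl (0.47, 0.37 to 0.58), and stood above the next gate without overlap. The macrophage level stood below that of monocytes without overlap in both libraries, and CD8 T and NK cells were among the lowest 3 gates in both.

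Irf8, the lineage factor of cDC1 and pDC, had similar levels in both libraries in most gates and differed widely between gates. In cDC1 it had 1412 CPM in BiDT and 1452 CPM in Ctrl, a log2 ratio of -0.04 (-0.25 to 0.17), so that the counting interval lies within 1.5-fold. NK cells had 1345 CPM in BiDT and 1103 CPM in Ctrl (0.29, 0.24 to 0.34), and migratory DC 1242 CPM in BiDT and 1031 CPM in Ctrl (0.27, 0.15 to 0.38). These 3 gates had the highest levels in both libraries. In BiDT each overlapped the next, and in Ctrl cDC1 stood above NK cells, which overlapped migratory DC. The pDC gate, too small for the counts above, had 3432 CPM in BiDT on 263 UMIs and 3106 CPM in Ctrl on 630 UMIs.
CD8 T cells had 447 CPM in BiDT and 453 CPM in Ctrl (-0.02, -0.08 to 0.04), and macrophages 330.5 CPM in BiDT and 262 CPM in Ctrl (0.33, 0.30 to 0.37). Monocytes had 439.8 CPM in BiDT and 301 CPM in Ctrl (0.55, 0.48 to 0.62), the ratio nearest to 1.5-fold from below. In BiDT the levels of CD8 T cells, monocytes and cDC2 overlapped from neighbour to neighbour, and in Ctrl CD8 T cells stood above cDC2, and cDC2 above monocytes, without overlap. In cDC2 the level was 403 CPM in BiDT and 352 CPM in Ctrl (log2 0.19). The sign of the cDC2 ratio depended on the gate. It was -0.31 (-0.59 to -0.04) on 644 UMIs under stricter gates and -0.13 on 971 UMIs with gates drawn on thinned cells. Treg cells had 219.7 CPM in BiDT and 215 CPM in Ctrl (0.03), CD4 T cells 171 CPM in BiDT and 132 CPM in Ctrl (0.37) and neutrophils 193 CPM in BiDT and 140.5 CPM in Ctrl (0.46). With gates drawn on thinned cells the ratio was -0.73 on 90 UMIs in CD4 T cells and 0.86 in neutrophils, and in thinned cells it was 0.74 in neutrophils.
At 1000 UMIs per cell the share of NK cells with an Irf8 UMI was 67.8% in BiDT and 57.6% in Ctrl, and unthinned 91.0% in BiDT and 89.7% in Ctrl. The non-immune gate, read for comparison, had 5.67% in BiDT and 3.48% in Ctrl thinned and 25.3% in BiDT and 21.8% in Ctrl unthinned. Median depths were 3244 UMIs in BiDT and 4648 in Ctrl for NK cells, and 6371 in BiDT and 9520 in Ctrl for the non-immune gate. Its Irf8 level, 57.7 CPM in BiDT and 39.7 CPM in Ctrl, was below 10% of that of another gate in both libraries, where free RNA cannot be told apart.
With the gates and depth used above, Irf8 passed 1.5-fold in gamma delta T cells alone, with 671 CPM in BiDT on 176 UMIs and 229.6 CPM in Ctrl on 97 UMIs (log2 1.55, 1.18 to 1.92). These UMIs lay in 25 of 81 cells in BiDT and 37 of 141 cells in Ctrl, and the interval leaves out the spread between cells. The ratio was -0.73 on 70 UMIs where the gate asked for 1 more marker. The 12 NK markers summed in the gamma delta T gate to 4191 CPM in BiDT, with 12 detected, and to 1406 CPM in Ctrl, with 11 detected and Klra8 at 0. Their part in the ratio was not tested.

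**Figure D3:**
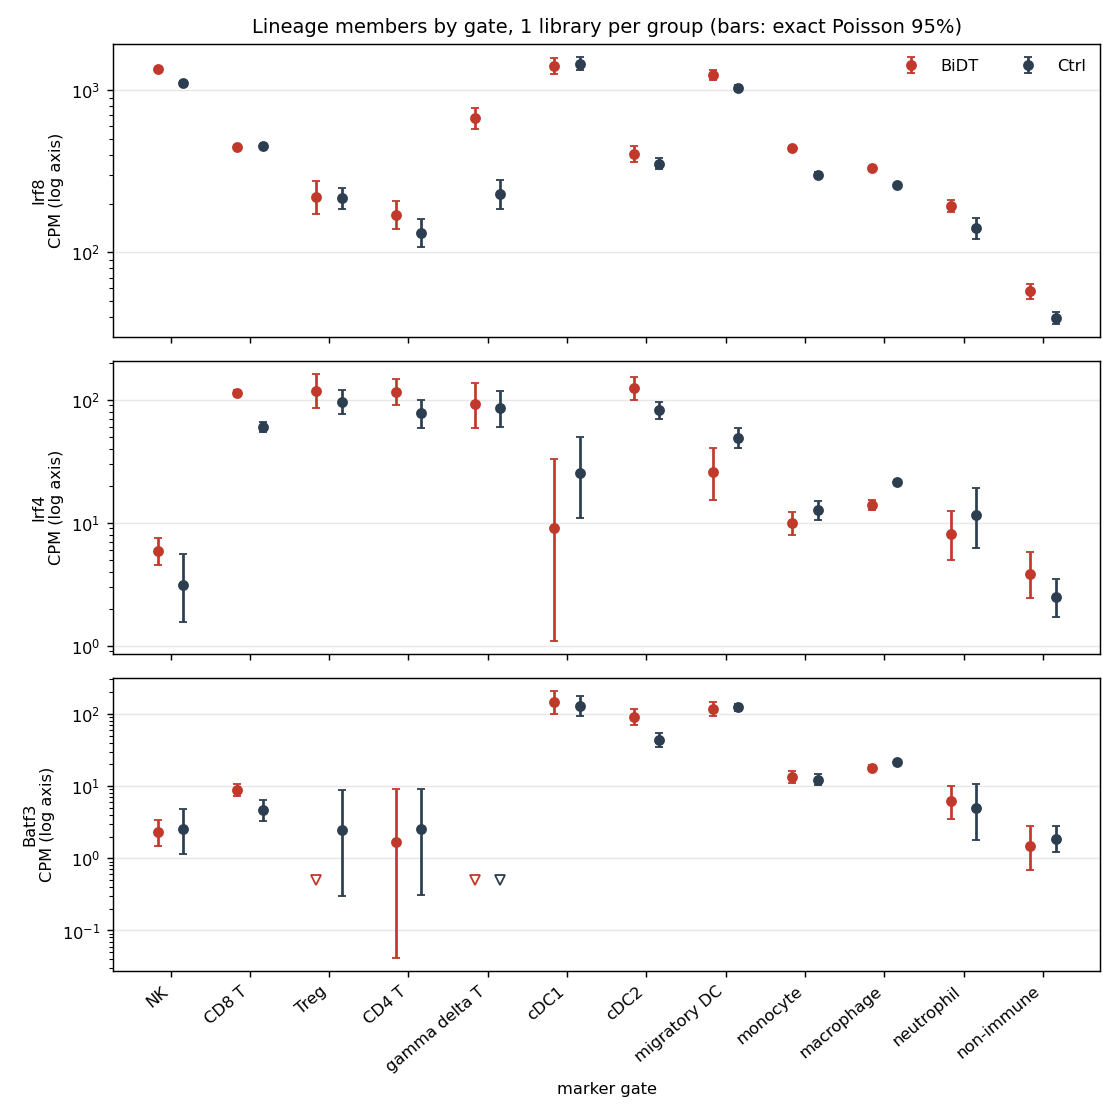
Levels of Irf8, Irf4 and Batf3 in CPM (log axes) by marker gate, BiDT left of Ctrl, with exact Poisson 95% intervals from 1 library per group; open triangles mark 0 UMIs and their height is not a level. Irf8 lies above 1000 CPM in cDC1, NK cells and migratory DC of both libraries, and the CD8 T level of Irf4 is 113 CPM in BiDT and 60.2 CPM in Ctrl.

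Irf4, which T cells induce on antigen receptor signalling, was higher in BiDT in CD8 T cells and lower in migratory DC. CD8 T cells had 113 CPM in BiDT on 1411 UMIs and 60.2 CPM in Ctrl on 491 UMIs (log2 0.91, 0.76 to 1.06), and the ratio lay between 0.76 and 1.09 over 8 alternatives. At 1000 UMIs per cell the share of CD8 T cells with a UMI was 10.2% (9.15% to 11.3%) in BiDT and 6.43% (5.38% to 7.61%) in Ctrl, and unthinned 26.6% in BiDT and 17.5% in Ctrl. The non-immune gate had 0.527% in BiDT and 0.0848% in Ctrl thinned and 2.77% in BiDT and 2.21% in Ctrl unthinned, below the CD8 T shares of the same library, at the depths given above for that gate and at 3314 UMIs in BiDT and 3386 in Ctrl for CD8 T cells. CD4 T cells had 116 CPM in BiDT and 77.3 CPM in Ctrl (0.59, 0.07 to 1.11), below 1.5-fold in 6 of 8 alternatives. The log2 ratio was 0.30 in Treg and 0.10 in gamma delta T cells.
Migratory DC had 25.8 CPM in BiDT on 18 UMIs and 48.9 CPM in Ctrl on 109 UMIs (log2 -0.92, -1.73 to -0.19), a ratio that lay between -1.13 and -0.62 over the alternatives. Malat1, a nuclear RNA, took a median of 1.52% of UMIs per migratory DC in BiDT and 0.402% in Ctrl, and the ratio was -1.03 among cells with Malat1 at 1% or less. In cDC2, the dendritic cells known to need IRF4, the level was 124 CPM in BiDT and 82.1 CPM in Ctrl (0.60, 0.21 to 0.98), below 1.5-fold in 5 of 8 alternatives. Macrophages had 14.0 CPM in BiDT and 21.4 CPM in Ctrl (-0.61, -0.76 to -0.47), and between -0.86 and -0.51 over the alternatives. In the macrophage gate the 10 markers of dendritic lineage summed to 3124 CPM in BiDT (10 detected) and 5591 CPM in Ctrl (10 detected), and their part in the Irf4 ratio was not tested. The dendritic gates thus did not share a direction. In cDC1 Irf4 had 2 UMIs in BiDT and 8 in Ctrl. The log2 ratios of 0.93 in NK cells and 0.63 in the non-immune gate belong to levels below 10% of another gate's in both libraries.
Irf4 was highest in cDC2, Treg, CD4 T, CD8 T and gamma delta T cells in both libraries, overlapping from neighbour to neighbour, and in BiDT gamma delta T cells stood above migratory DC without overlap, whereas in Ctrl the overlap ran on through migratory DC and cDC1 to macrophages.

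Batf3, the partner of IRF8 in cDC1, was highest in the 3 dendritic gates in both libraries. In cDC1 it had 145 CPM in BiDT on 32 UMIs and 130 CPM in Ctrl on 41 UMIs (log2 0.16, -0.55 to 0.86), and in migratory DC 116 CPM in BiDT and 123 CPM in Ctrl (-0.08, -0.46 to 0.28). Both intervals include 0. In cDC2 it was higher, with 91.1 CPM in BiDT on 69 UMIs and 43.6 CPM in Ctrl on 79 UMIs (1.06, 0.58 to 1.55), and the ratio lay between 0.74 and 1.28 over 8 alternatives. The gate for cDC2 leaves out cells with Xcr1 or Clec9a, so these cDC1 markers were at 0 there, and the 10 cDC1 markers summed in it to 1369 CPM in BiDT and 1024 CPM in Ctrl, with 8 detected in each. In BiDT the 3 dendritic gates overlapped from neighbour to neighbour, and in Ctrl migratory DC stood above cDC2 without overlap. At 1000 UMIs per cell the share of cDC2 with a UMI was 7.58% in BiDT and 3.36% in Ctrl, against 0 of 759 non-immune cells in BiDT, which by the floor of 3 counts allows a share of cells with a UMI of up to 0.395%, and 0.17% in Ctrl. Unthinned these were 22.2% in BiDT and 12.4% in Ctrl for cDC2, at median depths of 3016 UMIs in BiDT and 4008 in Ctrl, and 1.05% in BiDT and 1.70% in Ctrl for the non-immune gate. The counts of cDC2 cells were 198 in BiDT and 387 in Ctrl. Macrophages had 17.9 CPM in BiDT and 21.5 CPM in Ctrl (log2 -0.27), and monocytes 13.4 CPM in BiDT and 12.3 CPM in Ctrl (0.13). With gates drawn on thinned cells the macrophage ratio was -0.80 (-0.99 to -0.61) on 1524 UMIs. CD8 T cells had 8.89 CPM in BiDT and 4.66 CPM in Ctrl (log2 0.93), again below 10% of another gate's level in both libraries. The remaining 6 gates had fewer than 50 UMIs over both libraries, and gamma delta T cells had 0 in each, which by the same floor of 3 counts allows up to 11.4 CPM in BiDT and 7.1 CPM in Ctrl.

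Irf2, the competitor of IRF1, was higher in macrophages, with 194 CPM in BiDT and 124 CPM in Ctrl (log2 0.65, 0.61 to 0.70), and in the non-immune gate, with 128 CPM in BiDT and 75.5 CPM in Ctrl (0.76, 0.63 to 0.90). With TMM scaling the macrophage ratio was 0.42, below 1.5-fold. In the other 10 gates the log2 ratio lay between -0.25 in CD4 T cells and 0.29 in cDC1, and neighbouring levels overlapped throughout in both libraries. Irf2 levels of gates further apart did not all overlap, as with NK cells (80.8 to 91.9 CPM) and macrophages (190 to 199 CPM) in BiDT. Irf5, which acts downstream of Toll-like receptors in myeloid cells, was ordered by lineage in both libraries. It had 595 CPM in BiDT and 609 CPM in Ctrl in cDC1 (log2 -0.03) and 425 CPM in BiDT and 378 CPM in Ctrl in monocytes (0.17). In macrophages it had 299 CPM in BiDT and 249 CPM in Ctrl (0.27). The 3 dendritic gates overlapped from neighbour to neighbour and stood above monocytes, and monocytes above macrophages, in each library. In Treg cells Irf5 was lower, with 83.8 CPM in BiDT on 29 UMIs and 136 CPM in Ctrl on 111 UMIs (-0.69, -1.34 to -0.09), and the ratio was 0.53 on 35 UMIs where gates were drawn on thinned cells. In the Treg gate the 10 markers of dendritic lineage summed to 295 CPM in BiDT (8 detected) and 1367 CPM in Ctrl (9 detected), and the 14 monocyte markers to 2139 CPM in BiDT (10 detected) and 3322 CPM in Ctrl (13 detected), and their part in the Irf5 ratio was not tested. Irf3, the constitutive member activated by nucleic acid sensors, had 21.8 CPM in BiDT and 26.1 CPM in Ctrl in macrophages (-0.26, -0.38 to -0.14) and 35.4 CPM in BiDT and 39.9 CPM in Ctrl in CD8 T cells (-0.17, -0.38 to 0.04). With the cells, gates and depth used above it passed 1.5-fold in migratory DC alone. There it had 20.1 CPM in BiDT on 14 UMIs and 34.1 CPM in Ctrl on 76 UMIs (-0.76, -1.70 to 0.07), with an interval that includes 0. Among cells with Malat1 at 1% or less the ratio was -0.57 in migratory DC and -0.76 in Treg cells. Treg cells had -1.24 on 54 UMIs under stricter gates, and cDC2 -1.56 on 53 UMIs with gates drawn on thinned cells. In NK cells the Irf3 ratio was -0.42 with 29.0 CPM in BiDT and 38.7 CPM in Ctrl, and -1.18 on 104 UMIs in thinned cells. Neighbouring Irf3 levels overlapped throughout in both libraries, but gates further apart did not all overlap. In BiDT CD8 T cells (32.2 to 38.9 CPM) and NK cells (25.9 to 32.3 CPM) stood above macrophages (20.3 to 23.5 CPM), and both stood above macrophages without overlap in Ctrl too.

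**Figure D4:**
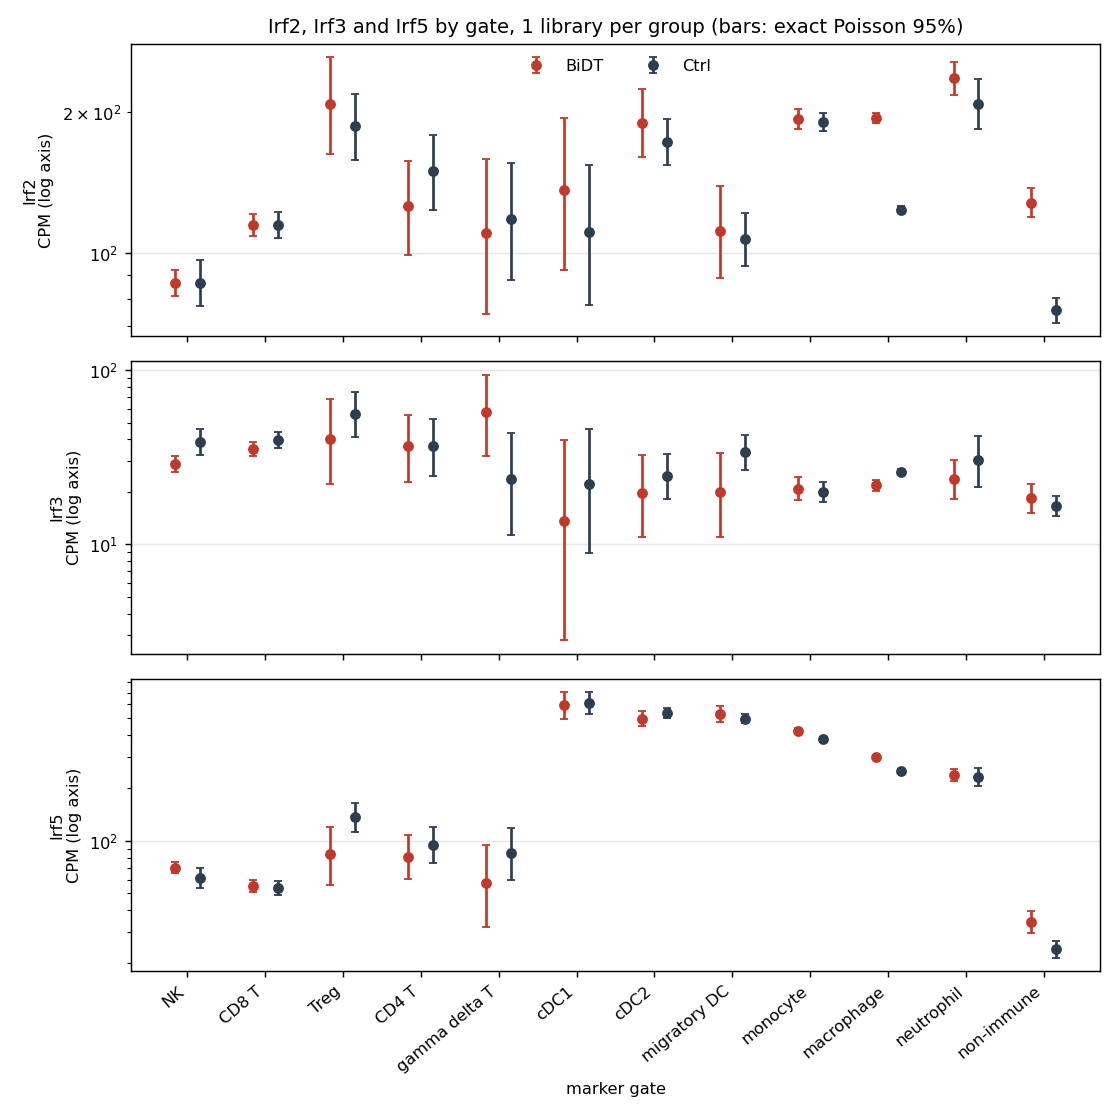
Levels of Irf2, Irf3 and Irf5 in CPM (log axes) by marker gate, BiDT left of Ctrl, with exact Poisson 95% intervals from 1 library per group. Irf5 is highest in the dendritic gates of both libraries, and the macrophage level of Irf2 is 194 CPM in BiDT and 124 CPM in Ctrl.

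Over many cell types at once, the ratios of the lineage members differed from those within gates. Over the cells of the 12 gates together, Irf8 had 493 CPM in BiDT and 289.6 CPM in Ctrl (log2 0.77, 0.75 to 0.79). With each gate's BiDT level weighted by the share of UMIs that the gate holds in Ctrl, a weighting chosen after seeing the data, the Irf8 ratio was 0.32. NK cells held 14.4% of gated UMIs in BiDT and 2.48% in Ctrl, CD8 T cells 16.4% in BiDT and 5.72% in Ctrl, and macrophages 43.1% in BiDT and 69.8% in Ctrl. Of filtered cells, NK cells were 7.72% in BiDT and 1.99% in Ctrl, and macrophages 21.7% in BiDT and 36.4% in Ctrl, at the median depths given above. Irf4 had 30.4 CPM in BiDT and 22.8 CPM in Ctrl (log2 0.41, 0.34 to 0.49), and -0.11 with Ctrl shares. Batf3 had 13.7 CPM in BiDT and 19.3 CPM in Ctrl (log2 -0.49, -0.60 to -0.39), and -0.14 with Ctrl shares. With Ctrl shares all 3 ratios lay closer to 0. For the inducible members the log2 ratio as found and with Ctrl shares was 3.36 and 3.65 for Irf7, 1.35 and 1.34 for Irf9, and 0.97 and 1.12 for Irf1. In the same order it was 0.37 and 0.53 for Irf2, -0.07 and -0.21 for Irf3, and -0.06 and 0.23 for Irf5.

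**Figure D5:**
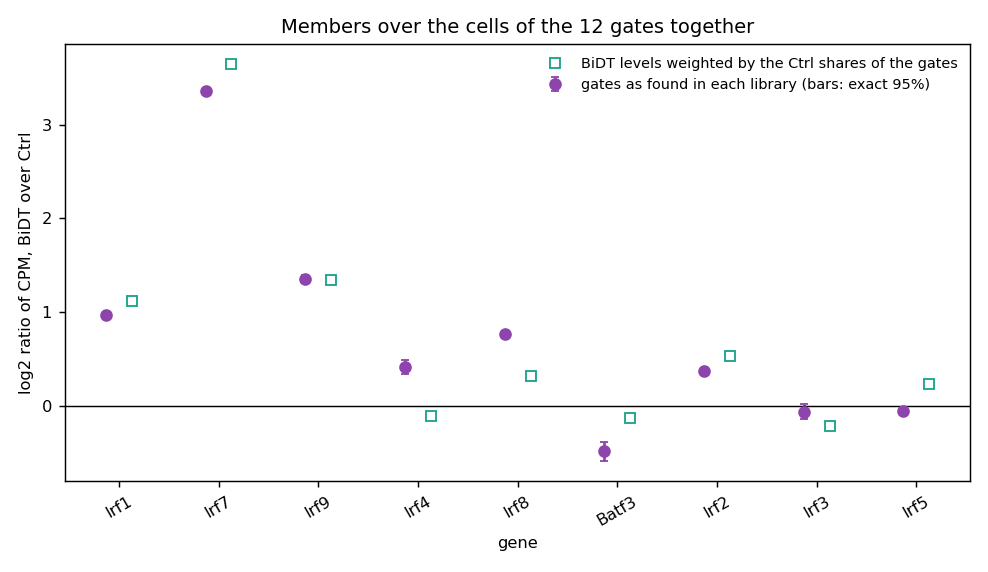
Log2 ratio of CPM, BiDT over Ctrl, of each member over all cells of the 12 gates, as found and with the BiDT levels weighted by the Ctrl shares of UMIs per gate, from 1 library per group. Irf8 lies at 0.77 as found and at 0.32 with Ctrl shares, and Irf7 at 3.36 and 3.65.

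Since the series title names an antibody to TIM3, the product of Havcr2, members were also compared between cells with and without a Havcr2 UMI after thinning to 1000 UMIs. Among CD8 T cells, 24.6% had a Havcr2 UMI in BiDT and 19.4% in Ctrl. For Irf7, CD8 T cells had 376 CPM in BiDT cells with Havcr2 and 396 CPM in BiDT cells without it (log2 of with over without -0.07, -0.27 to 0.12). For Irf4 they had 152 CPM in BiDT cells with Havcr2 and 111 CPM in BiDT cells without it (log2 of with over without 0.44, 0.11 to 0.77), and 74.3 CPM in Ctrl cells with Havcr2 and 70.8 CPM in Ctrl cells without it (log2 of with over without 0.07, -0.58 to 0.68). In BiDT, Irf4 thus had a positive ratio with an interval that leaves out 0, and the Irf7 interval includes 0. The log2 ratio of BiDT over Ctrl for Irf7 was 4.15 (3.15 to 5.37) in CD8 T cells with Havcr2, on 283 UMIs in BiDT and 8 in Ctrl, and 3.63 (3.22 to 4.07) in those without it. That of Irf4 was 1.03 (0.42 to 1.68) with Havcr2 and 0.65 (0.33 to 0.99) without it. The intervals of both subsets leave out 0, and the difference between the subsets was not tested. Macrophages had, for Irf7, 959.8 CPM in BiDT cells with Havcr2 and 924 CPM in BiDT cells without it (log2 of with over without 0.05, -0.06 to 0.17). Monocytes had, for the same gene, 509 CPM in BiDT cells with Havcr2 and 764 CPM in BiDT cells without it (log2 of with over without -0.59, -0.82 to -0.36). A cell without a Havcr2 UMI at this depth can still carry the transcript.

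The other genes of the pathway were read in macrophages, CD8 T cells and dendritic cells. Dendritic cells are here the 3 gates together, where 11.8% of all measured genes were higher and 5.8% lower. The counts below stand against these shares, against 21.2% higher and 10.7% lower in macrophages, and against 9.71% higher and 4.73% lower in CD8 T cells. The median over all measured genes was 0.11 in macrophages, 0.05 in CD8 T cells and 0.04 in dendritic cells. Stat2, the partner of IRF9 in ISGF3, was higher in all 3, with 321 CPM in BiDT and 68.4 CPM in Ctrl in macrophages (log2 2.23, 2.19 to 2.28). In CD8 T cells Stat2 had 165 CPM in BiDT and 44.4 CPM in Ctrl (1.90, 1.74 to 2.06), and in dendritic cells 331 CPM in BiDT and 139 CPM in Ctrl (1.26, 1.09 to 1.43). The receptor genes Ifnar1 and Ifnar2 stayed within 1.5-fold in all 3. Ifnar1 had 58.0 CPM in BiDT and 78.3 CPM in Ctrl in CD8 T cells (-0.43) and a log2 ratio of 0.03 in macrophages, and Ifnar2 had -0.37 in dendritic cells.
Sensors, adaptors and kinases that activate IRF3, IRF5 and IRF7 counted 9 higher and 0 lower of 21 measured in macrophages (median log2 ratio 0.38), 5 higher and 0 lower of 18 measured in CD8 T cells (median log2 ratio 0.12) and 4 higher and 1 lower of 19 measured in dendritic cells (median log2 ratio 0.12). Ddx58, which encodes the RNA sensor RIG-I, had 129 CPM in BiDT and 24.1 CPM in Ctrl in macrophages (2.42, 2.35 to 2.49). Ifih1, which encodes the RNA sensor MDA5, had 88.5 CPM in BiDT and 17.5 CPM in Ctrl in CD8 T cells (2.33). Tlr3, an RNA receptor and also 1 of the markers of the cDC1 gate, had 32.8 CPM in BiDT and 11.0 CPM in Ctrl in dendritic cells (1.58, 0.99 to 2.17). At the low end stood Ticam2, a Toll-like receptor adaptor, with -0.58 in macrophages and -1.03 in dendritic cells on 10 UMIs in BiDT and 53 in Ctrl, and the adaptor Traf3 with -0.15 in CD8 T cells.
DNA-binding partners of IRF4, IRF8 and BATF3 counted 4 higher and 0 lower of 15 measured in macrophages (median log2 ratio 0.40), 2 higher and 0 lower of 15 measured in CD8 T cells (median log2 ratio 0.13) and 1 higher and 0 lower of 14 measured in dendritic cells (median log2 ratio 0.26). Maf, an AP-1 family factor, had 37.7 CPM in BiDT and 21.3 CPM in Ctrl in CD8 T cells (0.82, 0.57 to 1.08) and 46.6 CPM in BiDT and 25.5 CPM in Ctrl in dendritic cells (0.87, 0.43 to 1.30). Ikzf3, an Ikaros family factor, had 9.42 CPM in BiDT and 2.14 CPM in Ctrl in macrophages (2.14), and the AP-1 gene Fosb -0.18. In the macrophage gate the 12 T lineage markers summed to 269.9 CPM in BiDT (12 detected) and 68.5 CPM in Ctrl (12 detected), and their part in the Ikzf3 ratio was not tested. Spi1, which encodes PU.1, a partner of IRF4 and IRF8, had 267 CPM in BiDT and 368 CPM in Ctrl in dendritic cells (-0.46) and -0.51 in CD8 T cells. In the CD8 T gate the 10 markers of dendritic lineage summed to 434 CPM in BiDT (10 detected) and 780.1 CPM in Ctrl (10 detected), and the 14 monocyte markers to 934 CPM in BiDT (14 detected) and 1533 CPM in Ctrl (14 detected), and their part in the Spi1 ratio was not tested.
Transcription factors of dendritic and monocyte lineages counted 4 higher and 1 lower of 20 measured in macrophages (median log2 ratio 0.09), 1 higher and 3 lower of 18 measured in CD8 T cells (median log2 ratio 0.01) and 0 higher and 0 lower of 19 measured in dendritic cells (median log2 ratio 0.12), in macrophages near the share of all genes. In dendritic cells the list ran between 0.52 for Zeb2 and -0.36 for Id2, which cDC1 need, at 591 CPM in BiDT and 761 CPM in Ctrl. In macrophages it ran between 2.49 for Gfi1, at 3.51 CPM in BiDT and 0.623 CPM in Ctrl, and -0.59 for Nr4a3. The T lineage sums of the macrophage gate given for Ikzf3 stand beside this Gfi1 ratio too. The list ran in CD8 T cells between 0.89 for Gfi1 and -1.04 for Cbfa2t3.
Genes with known IRF1 or IRF8 sites went both ways and counted 13 higher and 4 lower of 20 measured in macrophages (median log2 ratio 0.80), 7 higher and 3 lower of 19 measured in CD8 T cells (median log2 ratio 0.43) and 4 higher and 2 lower of 20 measured in dendritic cells (median log2 ratio 0.13). Il15, which encodes a cytokine for NK and memory CD8 T cells, had 43.3 CPM in BiDT and 7.05 CPM in Ctrl in macrophages (2.62, 2.49 to 2.75) and a log2 ratio of 2.19 in CD8 T cells. Cxcl10, a chemokine that binds CXCR3, had 1259 CPM in BiDT and 419 CPM in Ctrl in dendritic cells (1.59, 1.49 to 1.68). Cxcl9, another ligand of that receptor, had 290.1 CPM in BiDT and 458 CPM in Ctrl in dendritic cells (-0.66, -0.80 to -0.52) and -1.80 in CD8 T cells, where the part of the dendritic and monocyte marker sums given for Spi1 was not tested. Il12b, which encodes a subunit of interleukin 12, had 2.90 CPM in BiDT and 7.41 CPM in Ctrl in macrophages (-1.35, -1.68 to -1.04), beside the dendritic lineage sums of that gate given for Irf4. Of the genes of IRF2-binding proteins, Irf2bp1 had 27.5 CPM in BiDT and 13.8 CPM in Ctrl in dendritic cells (1.00, 0.41 to 1.57) and 0.01 in macrophages, Irf2bp2 0.40 in macrophages, and Irf2bpl 0.15 in CD8 T cells and -0.15 in dendritic cells.

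The genes whose levels were most like those of each member were found by Pearson's r of log2(CPM + 10) over 20 points, 10 gates with at least 100 cells in each of the 2 libraries, among 3647 genes. The points share libraries, depth and gates, so r is a description. Nearest to Irf7 were Oas3 (0.98), Daxx (0.96) and Isg15 (0.96), nearest to Irf9 Dtx3l (0.95), Ogfr (0.95) and Psme2b (0.94), and nearest to Irf1 Gbp2 (0.90), Il15 (0.89) and Ppp1r2 (0.89). For the lineage members the nearest were Pik3r1 (0.89), P2ry14 (0.84) and Sh3bp1 (0.84) for Irf8, Grap2 (0.88), Limd2 (0.84) and Map4k1 (0.83) for Irf4, and Pkib (0.97), Htr7 (0.96) and Etv3 (0.94) for Batf3. For Irf2 they were N4bp1 (0.88), Rara (0.88) and Dusp1 (0.87), for Irf3 Rhof (0.87), Vps28 (0.86) and Fcho1 (0.86), and for Irf5 Prkcd (0.98), Tbc1d9 (0.96) and Plbd1 (0.95). No gene was named for both an inducible and a lineage member. So few genes were named per member, out of 3647, that the lack of a shared name cannot tell the roles apart. Between members r was 0.90 for Irf7 with Irf9, 0.78 for Batf3 with Irf5, 0.50 for Irf8 with Batf3, 0.06 for Irf7 with Irf8 and -0.36 for Irf1 with Irf8.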

How the data were processed

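Live CD45-positive cells from pooled tumours were profiled in 2 single-cell RNA-seq libraries with a 10x Genomics 3′ workflow, per the labels' protocols. The deposited matrices hold raw UMI counts per gene and barcode, made by the authors with Cell Ranger 7.1.0 on GRCm39, per the submitters' processing notes. The release of the gene annotation is not stated in these notes. The barcodes are written as 3 segments of 9 bases, a form that the named workflow does not give, so the workflow is uncertain. BiDT held 34996 barcodes and 130313537 UMIs, Ctrl 34310 barcodes and 211047063 UMIs, and 713 barcodes occurred in both.

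Cells were kept with at least 300 genes, at least 500 UMIs and at most 10% mitochondrial UMIs. Cells were assigned by detected markers, with thresholds settled after seeing marker detection but not the members. No doublet caller was run, and cells passing more than 1 gate (4.21% of BiDT and 4.27% of Ctrl cells) were set aside as mixed. UMIs were summed per gate and library. CPM carry exact Poisson intervals, shares of cells exact Clopper-Pearson intervals, and ratios exact conditional binomial intervals, all at 95%. UMI intervals and floors (3 counts) cover counting error only, and no p-value was computed. The ratio step was tested on simulated data, which can check the calculation but not whether the intervals fit these libraries. The members and gene lists were chosen with earlier results of these data known. Named genes were all members, the highest and lowest measured gene of each list in macrophages, dendritic cells and CD8 T cells, and the 3 genes most like each member (some list results are not reported here). Of the listed sensors and adaptors, 21 of 24 symbols were found in the matrices. Alternatives were thinning to 1000 UMIs, 5% mitochondrial UMIs, Malat1 at 1% or less, leaving out the 5% of cells with most UMIs, stricter gates, gates on thinned cells, TMM (edgeR 4.0.16) and median-of-ratios scaling, minimums of 20 and 1 UMIs, and 2-fold. Python 3.11.15, scipy 1.17.1 and R 4.3.3 were used.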

Additional observations from a re-analysis of the deposited data

Results flagged for a closer look

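Irf4 had opposite directions in 2 gates: its log2 ratio of BiDT over Ctrl was 0.91 in CD8 T cells and -0.92 in migratory DC, where BiDT held 18 UMIs. This difference between gates was not tested.

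Irf7 was also higher in cells that no comparison above used. In cells without a gate it had 553 CPM in BiDT and 99.8 CPM in Ctrl, a log2 ratio of 2.47, and in cells with markers of several gates it had 466 CPM in BiDT and 34.7 CPM in Ctrl, a log2 ratio of 3.75.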

How the results depend on the processing

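No paired analysis was possible because each group is 1 library and no value comes from a test. The count of 30 inducible pairs higher in BiDT lay between 23 and 30 over the 11 alternatives. The shares of all measured genes that passed are given above for the main setting only. Whether the changes in the counts below follow those of all genes therefore cannot be told. Of lineage pairs, 8 were higher, and 5 when cells were thinned, under stricter gates, with gates on thinned cells, with TMM and with median-of-ratios scaling, and 2 at 2-fold. The 2 lower lineage pairs became 1 when cells were thinned, 4 under stricter gates, 5 with a minimum of 1 UMI and 0 at 2-fold. With gates on thinned cells the pairs changed. Irf4 in macrophages, at -0.51, no longer passed 1.5-fold, and Batf3 in macrophages (-0.80) and Irf8 in CD4 T cells (-0.73) became lower. For Irf2, Irf3 and Irf5 the 2 higher pairs became 1 with Malat1 at 1% or less, with TMM and with median-of-ratios scaling, and 0 at 2-fold. Gains occurred too. Irf5 in the non-immune gate, at 0.52 in the main setting, was 0.61 without the 5% of cells with most UMIs and 0.71 under stricter gates. With gates on thinned cells Irf2 in cDC1 passed 1.5-fold (0.60 on 58 UMIs), and Irf2 in the non-immune gate no longer did (0.45). The count of lower pairs, 2, was 1 when cells were thinned (Irf3 in NK cells, a pair not among those 2) and 0 at 2-fold. Under other alternatives the lower pairs changed too. Irf3 in Treg cells was lower with Malat1 at 1% or less and under stricter gates, and Irf3 in cDC2 with gates on thinned cells. A called ratio turned round in 2 cases: Irf5 in Treg cells was 0.53 with gates on thinned cells, and Irf8 in gamma delta T cells was -0.73 under stricter gates; the cause was not tested. Of 98 measured ratios, thinning left 4 below 1.5-fold that had passed it, and TMM 5. Thinning also took 6 others past 1.5-fold and changed the sign of 10, and TMM took 0 past it and changed 7 signs. With gates on thinned cells 6 ratios lost the fold, 9 gained it and 9 changed sign. Under stricter gates 5 lost it, 6 gained it and 10 changed sign. Small gates limit precision: cDC1 held 51 cells in BiDT and 61 in Ctrl. Intervals leave out the spread between cells. They also leave out the spread between animals, which 1 pooled library per group does not show.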
